A study of Mus musculus with 19 samples.

Results

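Connective tissue growth factor (Ctgf) and 6 related genes were followed through the stromal, mural and endothelial cells of a mouse model of heterotopic ossification, the growth of bone in soft tissue after injury. The set held 7 of the 27998 genes in the count tables: 5 members of the CCN family, under their older symbols Ctgf, Cyr61, Nov, Wisp1 and Wisp2 (now Ccn2, Ccn1, Ccn3, Ccn4 and Ccn5), and the genes Ankrd1 and Amotl2. The members were selected on their measured levels across these lineages, days and treatment, so that their levels and differences between groups are given as a description, without tests. Mice received a burn of 30% of the body surface and a cut of the Achilles tendon, and cells from the tendon site were profiled by single-cell RNA sequencing with 3' 10x chemistry, which counts unique molecular identifiers (UMIs). There were 19 libraries: day 0 (n = 4), day 3 (n = 3), day 7 (n = 4), day 21 (n = 4), and a group given the CD47-activating peptide p7N3 (n = 4). The sample labels listed the burn for day 0 as well, whereas the study's methods described day 0 as before injury. The labels named C57 and LysmCre/Tgfb1fx/fx mice for the series, the latter with a Cre driver of myeloid cells, and gave a genotype to no single library. The study described young adult male wild-type C57BL/6J mice, daily p7N3 injections and a saline vehicle, and the labels of the day 7 libraries named no vehicle. The label of the fourth p7N3 library gave no day of harvest, and day 7 was taken from the study's account of its p7N3 cells. No source used here said how many mice gave each library, so that p-values measure the spread between these libraries, which may be partly technical.

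CCN proteins are secreted matricellular proteins that bind integrins, heparan sulfate proteoglycans and growth factors, and they are known for roles in matrix production, wound repair and cartilage and bone formation. Ctgf, Cyr61, Ankrd1 and Amotl2 are widely used readouts of the transcriptional coactivators YAP (Yap1) and TAZ (Wwtr1), which are held in the cytoplasm by the Hippo kinases and act in the nucleus through TEAD factors bound to DNA. Ankrd1 encodes an ankyrin repeat protein of striated muscle, and Amotl2 an angiomotin family protein at cell junctions that also restrains YAP.

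In the GRCm38 assembly, Ctgf lies at chr10:24595442-24598683 (plus strand), Cyr61 at chr3:145646976-145649981 (minus), Nov at chr15:54745702-54754039 (plus), Wisp1 at chr15:66891320-66923201 (plus), Wisp2 at chr2:163820861-163833146 (plus), Ankrd1 at chr19:36111961-36120099 (minus) and Amotl2 at chr9:102716672-102733418 (plus). RefSeq promoter sequences (GRCm38.p6) were matched for 3 of the 7 members, Cyr61, Ankrd1 and Amotl2. The letters GGAATG, the core of the MCAT-type element that TEAD factors are known to bind, were searched on both strands in the 250 bases before the start. They were found in all 3, against 12.64% of 32851 promoters of the same length. The matches are shown because these members are read as TEAD-dependent genes. Capitals mark GGAATG or its reverse complement CATTCC, and each match is a description of these letters only. The whole window is given for Cyr61, at chr3:145649986-145650235 on the minus strand, and 30 bases for the others, at chr19:36120037-36120066 and chr19:36119950-36119979 on the minus strand for Ankrd1 and at chr9:102717727-102717756 on the plus strand for Amotl2. In the annotation, 250 of the 250 bases of the Ankrd1 window and 136 of the 250 bases of the Amotl2 window lay within annotated untranslated regions of transcripts, against 0 for Cyr61. The CArG box, the element bound by serum response factor, matched none of the 3 and 1.467% of all promoters.
Cyr61: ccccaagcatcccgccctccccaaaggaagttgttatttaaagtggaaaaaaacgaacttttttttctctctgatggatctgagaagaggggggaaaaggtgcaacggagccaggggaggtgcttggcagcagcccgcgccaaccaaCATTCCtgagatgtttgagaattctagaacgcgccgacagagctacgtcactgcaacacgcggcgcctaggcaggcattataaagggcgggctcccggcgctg
Ankrd1, upstream match: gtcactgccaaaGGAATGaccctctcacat
Ankrd1, downstream match: gacactaagtctGGAATGaaaattcacctg
Amotl2: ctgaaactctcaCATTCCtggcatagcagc

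After filtering, 39541 cells remained, with 3019467 to 39870492 UMIs per library. The day 0 libraries were the shallowest, at 3019467 to 5383855 UMIs against at least 11064153 in the others. No pair of libraries shared more than 1.26% of the cell barcodes of the smaller library. UMIs of each lineage were summed per library, and levels are given as CPM, the UMIs of a gene per 1000000 UMIs of that sum. Cells were clustered without the members and the pathway genes listed later, and clusters were named from marker genes. The stromal-like cells (Pdgfra, Col1a1, Dcn and other matrix genes) numbered 1186, 825, 4213, 1749 and 3527 on days 0, 3, 7 and 21 and with p7N3. The mural-like cells, pericytes (Rgs5, Kcnj8) and smooth muscle (Myh11, Acta2), numbered 181, 94, 559, 582 and 487. The endothelial-like cells (Pecam1, Cdh5) numbered 1109, 98, 736, 761 and 663. The summed level of Pecam1 and Cdh5 was between 1458 and 2381 CPM in the endothelial-like cells of every library and at most 91.4 CPM in the stromal-like cells. Different clusters filled a lineage on different days. The stromal-like cells came mostly from clusters 10 (Myoc, Inmt) and 14 (Has1, C3) on day 0, 15 (Prg4, Aldh1a2) on day 3, 2 (Sfrp4, Gdf10), 7 (Col7a1, Crabp1), 8 (Gzme, Gzmc), 14 and 16 (Pbk, Cdc20) on day 7 and with p7N3, and 2 and 10 on day 21. Most mural-like cells were smooth muscle-like on day 0 (143 of 181) and pericyte-like on day 7 (470 of 559). A level compared between days therefore also compares these cells.

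Each member had its own place among the 3 lineages. Ctgf had its highest mean in mural-like cells. Over the 19 libraries it was 256.5 ± 120 CPM (SD) in mural-like cells, 134 ± 85.3 in stromal-like cells and 62.85 ± 28.6 in endothelial-like cells. Within a library the mural level was above the endothelial level in 19 of 19, and above the stromal level in 14. Within mural-like cells it had a mean of 559 CPM in smooth muscle-like and 117 in pericyte-like cells (n = 14 libraries). Cyr61 had no clear order, at 381 ± 128 CPM in mural-like, 333 ± 75.1 in endothelial-like and 290.3 ± 92.4 in stromal-like cells, and the mural level was above the endothelial level in 10 of 19 libraries. Nov, Wisp1 and Wisp2 were stromal genes here. Wisp2 was higher in stromal-like than in mural-like cells in 19 of 19 libraries (322 ± 225 against 50.2 ± 46.7 CPM), and higher than in endothelial-like cells (12.0 ± 11.6 CPM) in 19. Wisp1 was higher in stromal-like than mural-like cells in 18 of 19 libraries, at 82.3 ± 55.1 against 21.6 ± 12.9 CPM, and reached 4.49 ± 3.59 in endothelial-like cells. Nov was above its endothelial level in the stromal-like cells of 19 libraries and above its mural level in 14. Amotl2 was lowest in mural-like cells, at 27.4 ± 12.7 CPM, below both the stromal (73.7 ± 18.7) and the endothelial level (59.7 ± 39.8) in 19 of 19 libraries. The stromal and endothelial levels of Amotl2 overlapped widely, and the stromal level was higher in 13.

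**Figure D1:**
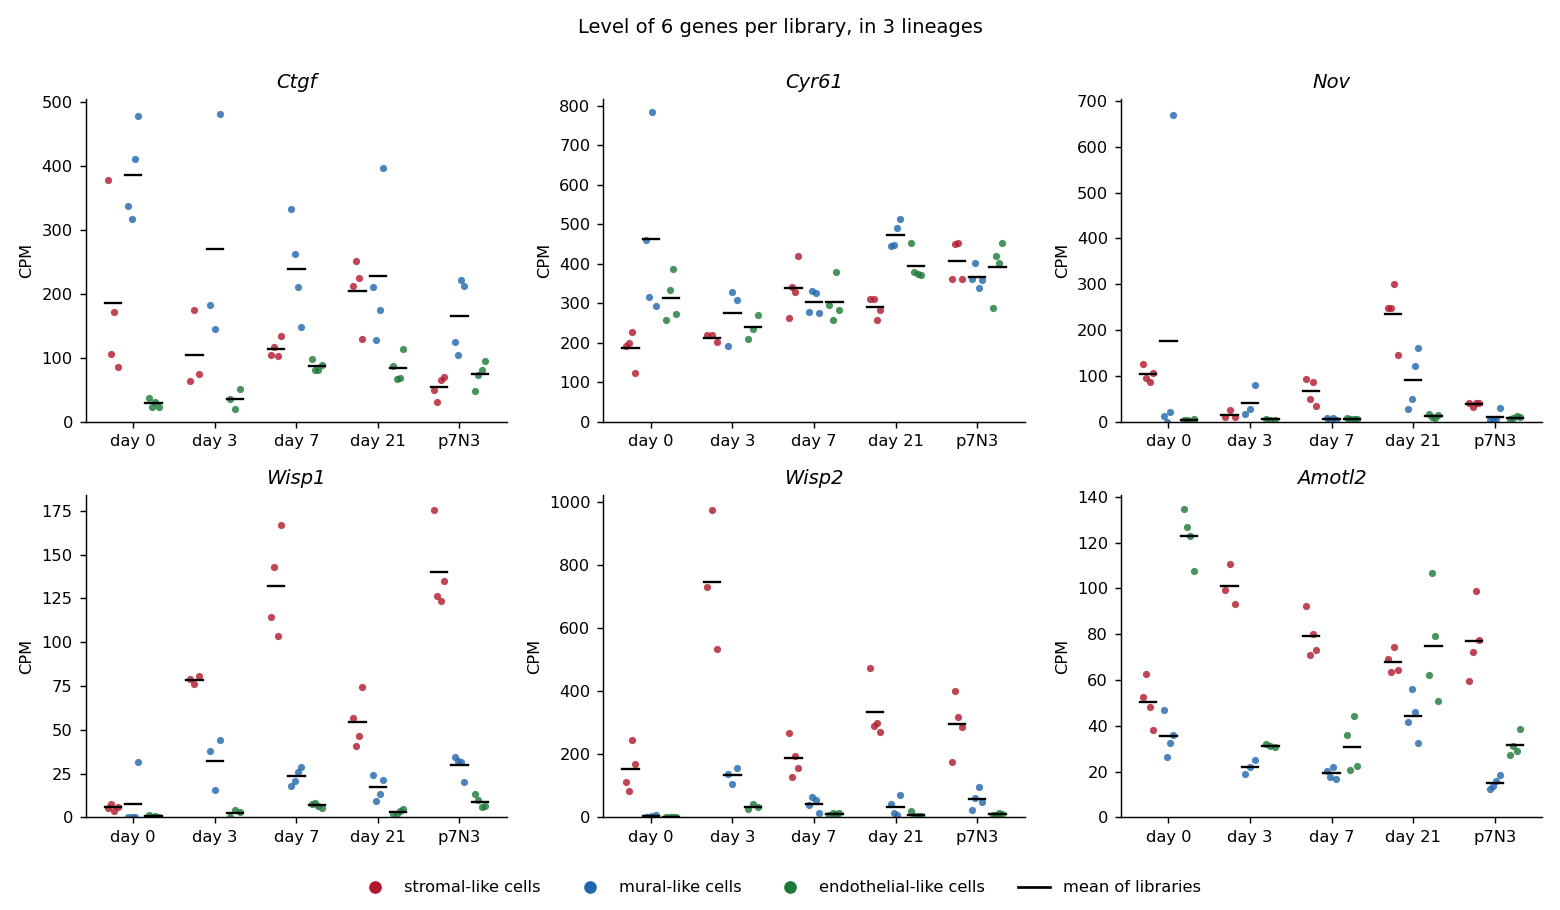
CPM of 6 members in each library (points) by group on the x axis, with the group mean as a bar, for stromal-like, mural-like and endothelial-like cells. Stromal Ctgf lies at 31.1 to 69.7 CPM with p7N3 and at 101.7 to 134 on day 7, stromal Wisp1 at 3.76 to 7.80 on day 0 and at 40.9 or more in every later library, and endothelial Amotl2 at 107.5 to 134.6 on day 0 against at most 44.1 on days 3 and 7.

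Immune cells held few counts of the members. In monocyte/macrophage-like cells, 2.63% of 14440 cells had a Ctgf UMI and 7.71% a Cyr61 UMI at a median of 6252 UMIs per cell, and the figures were 0.562% and 1.92% after every cell was thinned to 1500 UMIs, leaving out 32 shallower cells. Free RNA in the droplets gives such counts in cells that do not express a gene. The Ctgf share in stromal-like cells, thinned in the same way, was 10.1% on day 7 and 5.78% with p7N3, against 0.637% and 0.297% in the monocyte/macrophage-like cells of the same groups. Without thinning, these shares were 31.3% and 23.8% in stromal-like cells, at median depths of 12720 and 16040 UMIs, and 2.30% and 1.27% in monocyte/macrophage-like cells, at 5280 and 5097 UMIs. Wisp2 was the member with the most counts in immune cells on day 3, at 36.1 CPM in monocyte/macrophage-like cells, when its stromal level was 747 CPM, and its level in granulocyte-like cells that day was 46.0 CPM. The share of free RNA in the Wisp2 counts of mural-like and endothelial-like cells on day 3 was not tested.

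Ankrd1 was nearly absent from the 3 lineages, with no library above 10.3 CPM in any of them. Its stromal mean was 3.17 ± 2.25 CPM on day 7 (values 2.52, 3.24, 0.757 and 6.15) and at most 0.845 in the other groups. With p7N3 the 4 values were 1.44, 0.906, 0.253 and 0.123 CPM, from 42 UMIs in all against 203 on day 7, and the groups overlapped. The gene was instead found in muscle. Muscle satellite-like cells (Pax7, Myf5) held 208 ± 61.7 CPM of Ankrd1 on day 0 (n = 4, 123 to 267), and the skeletal muscle-like cells of the only day 7 library with at least 10 such cells held 216.5 CPM.

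Ctgf levels ran differently over the days in the 3 lineages. In stromal-like cells the day 0 values were 378, 106, 171 and 85.3 CPM, the day 3 values 63.6, 175 and 74.7, the day 7 values 103.5, 117, 101.7 and 134, and the day 21 values 213, 251, 224 and 129.7. The first day 0 library alone gave the highest of these, and neither day 3 nor day 7 was separated from day 0. Day 21 was higher on average than day 7, by 0.86 ± 0.18 on the log2 scale (estimate ± SE), with 1 day 21 library within the range of day 7. Adding the 2 unnamed clusters of stromal character (clusters 3 and 18, described later) gave a difference of 1.62. Cluster 18, led by the cartilage genes Col2a1, Cilp2 and Chad, made up 16.3% of the day 21 cells. In endothelial-like cells Ctgf was 36.7, 23.5, 30.9 and 22.8 CPM on day 0, 34.6, 20.1 and 51.5 on day 3, and 97.0, 79.9, 81.0 and 88.4 on day 7. All day 7 libraries were above all day 0 and day 3 libraries, and the day 7 level was 1.61 ± 0.16 above day 0 on the log2 scale. The endothelial-like cells of day 0 were mostly of cluster 12 (Timp4, Aqp7), with Ctgf at 23.2 ± 6.69 CPM on day 0 and 23.6 ± 5.23 on day 21, and those of day 7 mostly of cluster 11 (Selp, Plvap, Ackr1), at 106 ± 2.33. Within cluster 11 the day 3 libraries held 34.1 ± 13.9 CPM (n = 3), below all day 7 libraries. On day 0 cluster 11 held 142 ± 178 CPM (n = 2, 28 cells, 16.3 to 267.7). On day 7 cluster 12 held 29.3 ± 41.5 CPM (n = 2, 37 cells, 0 to 58.6). Between day 0 and day 7 the clusters and the days cannot be told apart in the lineage value.

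In mural-like cells the day 0 values of Ctgf were 336, 316, 410.3 and 477 CPM and the day 7 values 333, 262, 211 and 148. Day 7 was lower than day 0 by 0.81 ± 0.21 on the log2 scale, with overlapping groups. The difference went the other way within pericyte-like cells alone, at 1.498 on the same scale, where 2 day 0 libraries of at least 10 such cells held 144 and 33.8 CPM and the day 7 libraries 285, 198, 118 and 145. Smooth muscle-like cells held 435.5 ± 84.1 CPM on day 0 and 625 ± 379 on day 7 (n = 4 each). The lower mural mean of day 7 was thus seen within neither cell type. Cell type and day cannot be told apart in the mural sum.

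Cyr61, which encodes a ligand of several integrins that is also induced within minutes by serum, was lowest in stromal-like cells on day 0. The values were 192, 198, 228 and 123 CPM on day 0, 218.5, 219 and 202 on day 3, 262, 341, 328 and 419 on day 7, 309.9, 312, 256 and 282.5 on day 21, and 361, 449, 454 and 360.4 with p7N3. All day 7 libraries were above all day 0 libraries, by 0.91 ± 0.18 on the log2 scale, a fold of 1.87. Cluster 10 held 173 ± 45.5 CPM on day 0 and 181 ± 47.4 on day 7 (n = 4 each). Cluster 14 held 254.5 ± 41.2 and 299.5 ± 30.0 (n = 4 each), and both clusters overlapped between these days. Clusters and days cannot be told apart in the stromal sum. In mural-like cells the order of the days was different. Day 0 ranged from 292.5 to 784 CPM, day 7 from 275 to 331 and day 21 from 446 to 513.5, so that day 21 was above day 7 in all libraries by 0.70 ± 0.10. Day 7 was 0.75 ± 0.22 below day 0 in the mural sum, and the difference was 0.17 in pericyte-like cells alone. Smooth muscle-like cells held 482 ± 235, 495 ± 279 and 488 ± 66.6 CPM on days 0, 7 and 21 (n = 4 each). Pericyte-like cells held 281 ± 32.5 CPM on day 7 and 462 ± 53.7 on day 21 (n = 4 each). Immediate early genes, which are also induced by enzymatic dissociation, moved beside the mural values: the 11 genes of that list summed to 13590 CPM on day 0, 4716 on day 7 and 10390 on day 21 in mural-like cells, and to 7315, 4083 and 4255 CPM in stromal-like cells. Their part in the Cyr61 and Ctgf levels was not tested.

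Nov encodes a CCN protein known to restrain osteoblast differentiation. In stromal-like cells it was 126, 95.8, 85.4 and 106 CPM on day 0, 9.24, 24.4 and 9.46 on day 3, 93.5, 50.3, 87.3 and 33.2 on day 7, and 248, 248, 300.3 and 146 on day 21. Every day 3 library lay below every day 0 library (−2.69 ± 0.30 log2), and every day 21 library above every day 7 library (1.85 ± 0.32, a fold of 3.62). Without the second day 3 library the first of these was −3.33. Cluster 2 held 195.8 ± 28.4 CPM on day 7 and 305.1 ± 80.4 on day 21, cluster 10 held 218.5 ± 159.5 and 219.9 ± 23.67. Cluster 14 held 159.7 ± 26.14 and 106.8 ± 40.37 (n = 4 each), and all 3 overlapped between these days. Clusters 7, 8 and 16 held 12.98, 28.17 and 15.48 CPM on day 7, with higher means on day 21 (n = 2 each). For Nov, clusters and days cannot be told apart in the stromal sum. In mural-like cells Nov was at 2.52 to 8.24 CPM on day 7 and 27.9, 49.96, 120.5 and 161 on day 21, again with no overlap. The mural mean of day 0 was set by the fourth library, at 670.4 CPM against 12.8, 0 and 20.3 in the others. Nov was among the top 10 genes of the stromal cluster 2, although it was left out of the clustering.

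In stromal-like cells Wisp1 showed the largest differences from day 0 among the members. The WNT-induced gene is known from osteoblast precursors and fibrotic tissue. Its stromal values were 5.44, 7.80, 3.76 and 5.69 CPM on day 0, from 34 UMIs in all, then 78.8, 76.2 and 80.4 on day 3, 114, 143, 104 and 167 on day 7, and 56.8, 40.9, 46.4 and 74.3 on day 21. The day 3 level was 3.99 ± 0.16 above day 0 on the log2 scale (a fold of 15.9) and the day 7 level 4.65 ± 0.23 above it (25.1). With the unnamed stromal clusters added, the same differences were 2.26 and 3.07, and the day 0 level was 19.0 CPM. The day 3 difference of Wisp1 was then not the largest, since that of Nov was −2.43 or lower under every alternative. Unnamed cluster 18 alone held 218 ± 41.6 CPM of Wisp1 on day 0 (n = 3) and 72.4 ± 9.37 on day 21 (n = 4). In stromal-like cells Wisp1 was lower on day 21 than on day 7 in all libraries, by −1.22 ± 0.20. Within clusters (n = 4 each), cluster 10 held 6.002 ± 2.387 CPM on day 0, 4.162 ± 4.665 on day 7 and 11.03 ± 2.797 on day 21. Cluster 14 held 1.515 ± 1.847, 30.59 ± 8.378 and 7.941 ± 6.596. Cluster 2 held 53.76 ± 9.688 on day 7 and 51.34 ± 8.072 on day 21. Days 0 and 7 overlapped in cluster 10 and not in cluster 14. For Wisp1, clusters and days cannot be told apart in the stromal sum. In mural-like cells the 7 Wisp1 UMIs of day 0 all came from the fourth library, at 31.5 CPM, and the day 7 values ran from 18.0 to 28.7.

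Wisp2, a CCN protein without the C-terminal domain that the others share, was highest on day 3. The stromal values were 114, 83.6, 245 and 168 CPM on day 0, 732, 974 and 534 on day 3, 268, 128, 195 and 158 on day 7, and 473.5, 290.5, 300.9 and 269.9 on day 21. The day 3 libraries did not overlap any other day, and were 2.38 ± 0.30 above day 0 on the log2 scale, a fold of 5.20. Day 21 was above day 7 in all libraries by 0.86 ± 0.24. Most day 3 stromal-like cells belonged to cluster 15, whose top 10 genes included Wisp2. In mural-like cells 3 Wisp2 UMIs were counted in 181 cells on day 0, and 256 in 94 cells on day 3 (136, 106 and 157 CPM). In endothelial-like cells day 0 was at most 2.51 CPM and day 3 at 28.2, 43.4 and 32.0. Stromal markers (Pdgfra, Col1a1) summed to 2847 CPM in mural-like and 257 in endothelial-like cells on day 3, against 307 and 116 on day 0. In stromal-like cells they summed to 8635 CPM on day 3. Markers of immune cells (Ptprc, Lyz2, Tyrobp) summed to 1409 CPM in stromal-like, 1203 in mural-like and 1309 in endothelial-like cells on day 3. On day 0 the immune sums were 67.5, 49.5 and 151. The part of stromal or immune RNA in the day 3 values was not tested.

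Amotl2 differed from day 0 in opposite directions in the sums of stromal and of vascular cells. In stromal-like cells it was 52.6, 62.4, 48.3 and 38.4 CPM on day 0, 99.2, 110.6 and 93.3 on day 3, and 92.3, 70.8, 80.0 and 73.2 on day 7. In endothelial-like cells it was 134.6, 127, 123 and 107.5 on day 0, 31.9, 31.2 and 30.9 on day 3, 36.1, 20.8, 44.1 and 22.6 on day 7, and 62.2, 107, 79.4 and 50.6 on day 21. The stromal groups and the endothelial groups were each without overlap between day 0 and days 3 and 7. The stromal difference was 1.15 ± 0.12 on day 3 and 0.71 ± 0.13 on day 7 on the log2 scale, and the endothelial difference −1.85 ± 0.15 and −1.95 ± 0.19. Stromal cluster 10 held 50.2 ± 11.3 CPM on day 0 and 66.8 ± 21.6 on day 7 (n = 4 each). Cluster 14 held 34.6 ± 12.2 and 63.5 ± 16.1 (n = 4 each), and both clusters overlapped between these days. The clusters of the stromal sum differed between days 0, 3 and 7. Cluster 12, with most endothelial-like cells of day 0, had 128 ± 12.7 CPM on day 0 (n = 4) and 84.1 ± 24.1 on day 7 (n = 2). Cluster 11, with most of those of day 7, had 48.7 ± 68.8 CPM (n = 2) and 31.5 ± 13.4 (n = 4). Between these days the clusters and the days cannot be told apart in the endothelial value. The mural sum ran in the same direction as the endothelial one, with day 7 below day 0 by −1.03 ± 0.30 and day 21 above day 7 by 1.19 ± 0.19, both without overlap. Smooth muscle-like cells did not share it, at 27.0 ± 11.4, 27.1 ± 13.4 and 28.1 ± 6.99 CPM on days 0, 7 and 21 (n = 4 each). Pericyte-like cells held 62.6 ± 7.11 CPM on day 0 (n = 2, 23 cells), 18.45 ± 3.14 on day 7 and 53.6 ± 15.1 on day 21 (n = 4 each). Mural markers (Rgs5, Myh11) in the endothelial-like cells summed to 934 CPM on day 0 and 147 on day 7, and their part in the Amotl2 values was not tested.

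**Figure D2:**
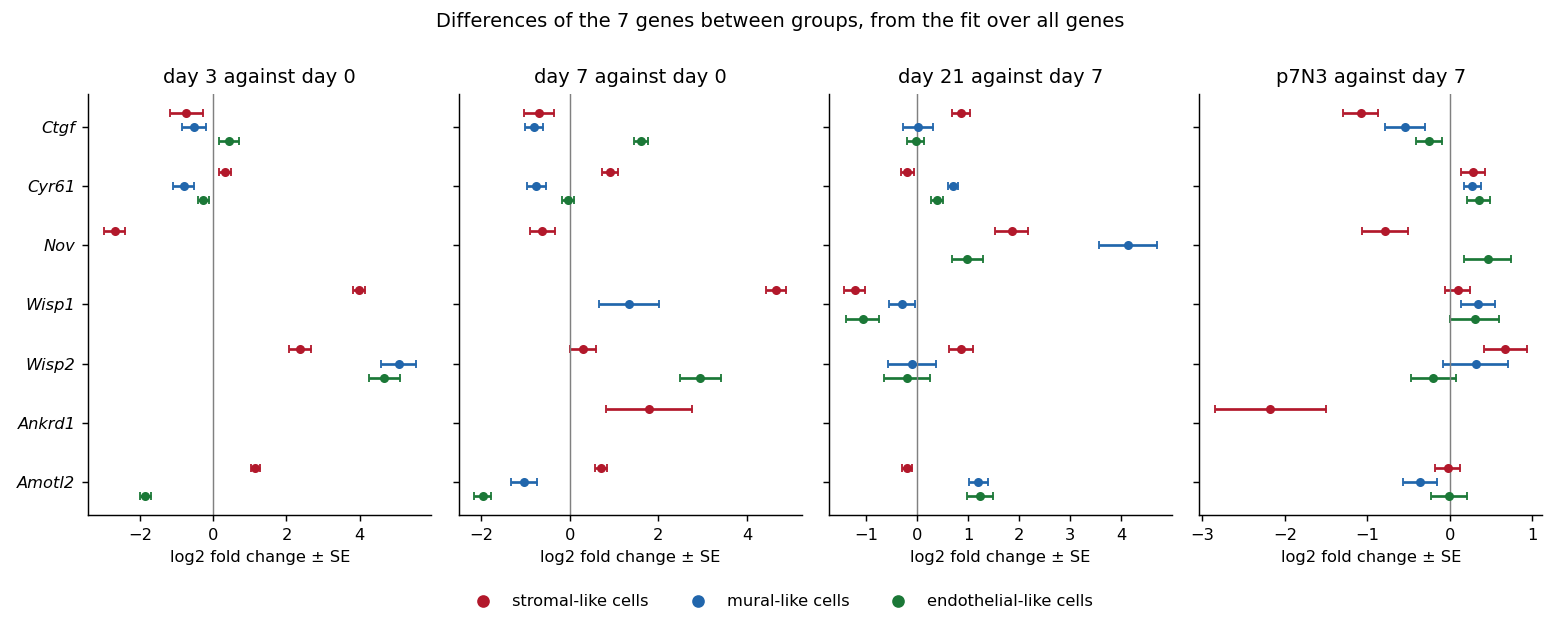
Difference of each member's level on the log2 scale (point) with its standard error (bar) for 4 comparisons in the 3 lineages, for the members that passed the filter on low counts. The widest stromal differences are those of Wisp1 on days 3 and 7 against day 0, at 3.99 and 4.65, and Ctgf with p7N3 against day 7 lies at −1.08. The mural Wisp2 point of day 3 rests on 3 UMIs on day 0.

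Whole transcriptomes differed widely between days, so that lack of overlap was common for any gene. Between day 3 and day 0, 64.4% of 10530 genes did not overlap between the groups in stromal-like cells, 55.1% of 3851 in mural-like and 58.1% of 9073 in endothelial-like cells. Of the members, 6 passed the filter on low counts in stromal-like cells and 4 did not overlap (Amotl2, Wisp1 and Wisp2 higher, Nov lower). In mural-like cells 3 passed and 1 did not overlap (Wisp2 higher), and in endothelial-like cells 4 passed and 2 did not overlap (Wisp2 higher, Amotl2 lower). Between day 7 and day 0 the shares over all genes were 48.5%, 44.2% and 53.3% in the same order. The members without overlap were 3 of 7 that passed in stromal-like cells (Amotl2, Cyr61 and Wisp1 higher), 1 of 4 in mural-like cells (Amotl2 lower) and 3 of 4 in endothelial-like cells (Ctgf and Wisp2 higher, Amotl2 lower). Between day 21 and day 7 the shares over all genes were 34.7%, 31% and 31%. Here 3 of 6 members did not overlap in stromal-like cells (Nov and Wisp2 higher, Wisp1 lower), 3 of 6 in mural-like cells (Amotl2, Cyr61 and Nov higher) and 2 of 6 in endothelial-like cells (Amotl2 higher, Wisp1 lower). Since the members were selected on these levels, nothing is read from their counts.

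The p7N3 comparison asked how activation of CD47, a receptor for thrombospondin that is also a signal against engulfment, changed the injury site on day 7. Stromal Ctgf was lower with p7N3, at 49.2, 31.1, 65.1 and 69.7 CPM against 103.5, 117, 101.7 and 134 on day 7. Every p7N3 library was below every day 7 library, and the difference was −1.08 ± 0.21 on the log2 scale, a fold of 0.473. In the first 3 replicates alone, whose labels listed another genome build than the fourth, it was −1.15. Leaving out any library in turn kept it between −1.23 and −0.89. Both checks reuse the libraries on which the members were selected, so they are no independent support. Across all genes 5.95% of 13253 did not overlap between these groups in stromal-like cells, and Ctgf was the only member among them.

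The other stromal members did not separate. Nov was 41.3, 30.9, 40.8 and 39.7 CPM with p7N3 and 33.2 to 93.5 on day 7 (−0.78 ± 0.28 log2). Wisp2 was 176, 402, 317 and 286 with p7N3 and 128 to 268 on day 7 (0.67 ± 0.26). Cyr61, which is often read together with Ctgf, was on average higher rather than lower with p7N3, by 0.28 ± 0.15, with overlapping values. Wisp1 (0.09 ± 0.16) and Amotl2 (−0.03 ± 0.15) had nearly the same means in both groups. Ankrd1 differed by −2.18 ± 0.67 at the few UMIs given above.

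In mural-like cells Ctgf was 125, 104, 221 and 212 CPM with p7N3 against 333, 262, 211 and 148 on day 7 (−0.55 ± 0.25 log2), with overlap. Within pericyte-like cells the p7N3 values were 105, 31.6, 70.5 and 70.5 CPM, all below the day 7 values of 285, 198, 118 and 145, and the difference was −1.39. Smooth muscle-like cells showed no such difference, with 478, 511, 841 and 935 CPM with p7N3 against 528, 1099, 689 and 186 on day 7, from 90 and 89 cells. Mural Cyr61 was 361, 402, 339 and 358 CPM with p7N3 and 278, 331, 325.5 and 275 on day 7, with no overlap (0.27 ± 0.10), and was the only 1 of 5 members that passed the filter to separate, against 3.7% of 9413 genes. In endothelial-like cells 0 of 6 members separated, against 4.34% of 10264 genes. Endothelial Ctgf was 48.0, 72.6, 79.9 and 94.0 CPM with p7N3 (−0.25 ± 0.16), and Cyr61 was 287 to 454 against 258 to 379 CPM (0.35 ± 0.14).

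The stromal Ctgf difference was not spread evenly over the clusters. In cluster 7 (Col7a1, Crabp1), the 4 day 7 libraries held 149.8, 140.0, 151 and 192 CPM and the p7N3 libraries 49.1, 30.3, 92.6 and 45.2. In cluster 16, led by mitotic genes (Pbk, Cdc20), they held 175, 189, 151 and 111 against 41.6, 37.1, 64.7 and 44.7, and in cluster 8 (Gzme, Gzmc) 56.8, 41.0, 48.1 and 89.9 against 32.6, 27.4, 31.1 and 37.3. These 3 clusters were without overlap. The share of all genes without overlap is not given for single clusters or for pericyte-like cells alone. Lack of overlap there is therefore a description only, and nothing is read from it. Cluster 2 (Sfrp4, Gdf10) was not lower, at 49.7 ± 8.06 CPM on day 7 and 57.0 ± 24.4 with p7N3 (n = 4 each). Over the 7 stromal-like clusters the mean of Ctgf was lower with p7N3 in 6. Cluster 3, led by C1qtnf3 and the tendon transcription factor gene Scx and left unnamed, showed the same direction without overlap, at 174, 159.8, 217 and 197 CPM against 63.7, 91.6, 98.9 and 74.5. Cluster 3 made up 12.0% of the pooled day 7 cells and 6.03% of the pooled p7N3 cells. By library it had 143, 721, 465 and 285 cells on day 7 and 115, 272, 144 and 158 with p7N3, and these counts overlapped. Clusters 3 and 18 held on average 32.3% of the Ctgf UMIs of a day 7 library. Differences between clusters in the size of the p7N3 difference were not tested. Of the other members, Cyr61 and Wisp2 had a higher mean with p7N3 in 6 of the 7 stromal-like clusters, none without overlap. Nov had a lower mean in 6 of the 7, and in cluster 2 its p7N3 libraries (129 ± 18.4 CPM) were all below those of day 7 (196 ± 28.4). Amotl2 overlapped in each of the 7. In the unnamed cluster 3 it was lower with p7N3 without overlap, at 36.3 ± 3.07 CPM against 62.9 ± 2.84 on day 7 (n = 4 each). Cyr61, Nov, Wisp1, Wisp2 and Ankrd1 overlapped in cluster 3.

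**Figure D3:**
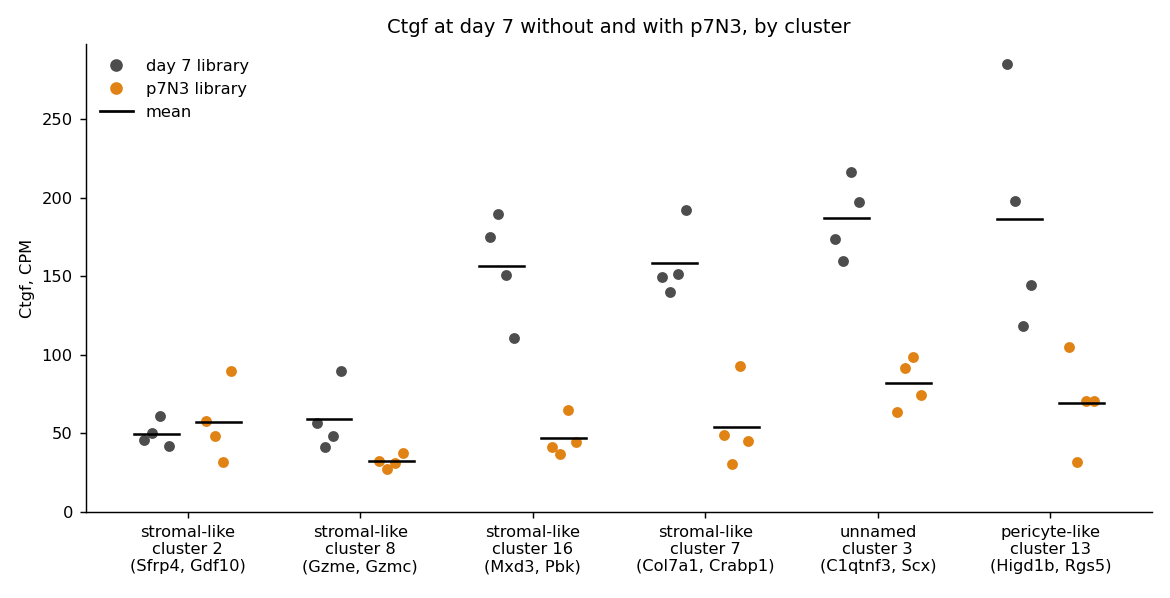
Ctgf CPM in each library of day 7 and p7N3 (points, bars are means) for stromal-like clusters 2, 8, 16 and 7, unnamed cluster 3 and pericyte-like cluster 13. All p7N3 points lie below all day 7 points in every cluster drawn but cluster 2, where the means are 49.7 and 57.0 CPM.

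Few genes of any kind passed a test between p7N3 and day 7. With edgeR's quasi-likelihood test and Benjamini-Hochberg adjustment, 0% of 13253 genes passed an adjusted p of 0.05 in stromal-like cells, 0.0106% of 9413 in mural-like cells and 0% of 10264 in endothelial-like cells. At an unadjusted p under 0.05 there were 1459, 654 and 804 genes, and DESeq2 called 71, 1 and 0. The 1 mural gene was Hmox1, the heme oxygenase gene, named after its value was seen, at 152 ± 37.4 CPM with p7N3 and 56.5 ± 6.94 on day 7 (n = 4 each, 1.43 ± 0.16 log2, edgeR adjusted p = 0.002506). With doublets removed, 0 mural genes passed. A list of 18 other YAP/TEAD target genes was chosen, like the other lists, with earlier results of these data known. All of them were tested in stromal-like cells and 15 each in mural-like and endothelial-like cells. The list held 0 called genes in each lineage by edgeR and 0 in stromal-like cells by DESeq2. The stromal median of the list was −0.05 on the log2 scale, against 0.001 over all genes. The effectors themselves had similar means. Stromal Yap1 was 35.4 ± 4.39 CPM with p7N3 and 37.9 ± 4.63 on day 7 (−0.09 ± 0.11, edgeR adjusted p = 0.7987), Wwtr1 78.7 ± 6.37 and 77.3 ± 4.51 (adjusted p = 0.9042), and Tead1 63.9 ± 11.3 and 58.0 ± 9.77 (adjusted p = 0.7515). Of the immediate early genes, stromal Egr1 (adjusted p = 0.9028) and Fos (0.8278) also did not pass edgeR's test. In simulated data with the stromal means and library sizes, 79.5% of 200 genes changed 2-fold were called, among 13129 genes, with 7.02% of the calls false. That share holds for the simulated spread between libraries and for 200 genes changed at once. Whether it holds for the measured genes was not tested.

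Within lineages, where the selection of the members had used no contrast between cell types of 1 lineage, the members were tested with edgeR and the library as a block. Cell types came from clusters made without the members, but not without genes correlated with them. Smooth muscle-like cells carried more Ctgf than pericyte-like cells. In the 14 libraries with at least 10 cells of each (510 and 1231 cells), the lowest, median and highest levels were 73.2, 519 and 1099 CPM in smooth muscle-like and 31.6, 112 and 285 CPM in pericyte-like cells. The smooth muscle level was higher in 13 of 14 libraries, by 2.42 ± 0.30 on the log2 scale (adjusted p = 2.627e-07). Nov (1.80 ± 0.43, adjusted p = 0.001233, higher in 10 of 14), Wisp2 (1.20 ± 0.30, adjusted p = 0.002326, 11 of 14) and Cyr61 (0.53 ± 0.14, adjusted p = 0.002322, 12 of 14) were also higher by edgeR's test. Their medians in smooth muscle-like and pericyte-like cells were 22.1 and 6.27 CPM for Nov, 39.3 and 33.4 for Wisp2, and 408.5 and 353 for Cyr61. Smooth muscle-like Nov was 0 in 2 libraries and reached 763 CPM in a day 0 library. Wisp2 reached 365 CPM in a p7N3 library. Amotl2 was at 25.8 ± 9.79 CPM in smooth muscle-like and 33.5 ± 22.4 in pericyte-like cells (−0.20 ± 0.22, adjusted p = 0.5065). Over all genes 47% of 5466 passed, against 4 of 5 tested members. In the same fit 8 of the 11 immediate early and dissociation genes were higher in smooth muscle-like cells, and their part in the Cyr61 and Ctgf differences was not tested.

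Tenocyte-like cells likewise carried more Ctgf than stromal-like cells. No cluster could be named tenocyte-like from its markers at the clustering used above, and the cells were taken from a finer clustering, chosen after the data were seen. Cluster 18, led by cartilage genes, came closest there, with Tnmd in 94.2% and Scx in 81.9% of its cells. Its Ctgf on day 0 was 1206 ± 701 CPM (n = 3), the tenocyte-like value of that day given below. The name therefore does not set these cells apart from cartilage-like cells, and the cells common to both were not counted. In 11 libraries (1000 tenocyte-like and 7514 stromal-like cells), the lowest, median and highest Ctgf levels were 158, 653 and 1994 CPM in tenocyte-like and 33.1, 126 and 380.1 CPM in stromal-like cells. The tenocyte level was higher in 11 of 11 libraries, by 2.17 ± 0.19 on the log2 scale (edgeR adjusted p = 1.394e-07). By group, tenocyte-like Ctgf was 1206 ± 701 CPM on day 0 (n = 3), 387 ± 86.2 on day 7 (n = 2) and 689 ± 180 on day 21 (n = 4). Cyr61 was higher as well in 11 of 11 libraries, with medians of 602 and 312.5 CPM (1.13 ± 0.13, edgeR adjusted p = 2.056e-06). The stromal genes Wisp2 (−1.41 ± 0.21, adjusted p = 4.109e-05) and Amotl2 (−0.70 ± 0.15, adjusted p = 0.001503) were lower by edgeR's test, in 10 and 8 of 11 libraries. Nov (−0.78 ± 0.33, adjusted p = 0.09118) and Wisp1 (0.96 ± 0.44, adjusted p = 0.1175) did not pass edgeR's test. Of 9844 genes 28% passed, against 4 of 6 tested members.

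Lymphatic endothelial-like cells (Prox1, Lyve1) carried less Ctgf and more Wisp2 than blood vessel endothelial-like cells. In 14 libraries (289 and 2476 cells) the lowest, median and highest Ctgf levels were 11.7, 22.3 and 239 CPM in lymphatic and 22.8, 90.0 and 106.5 CPM in blood vessel cells. The lymphatic level was lower in 13 of 14 libraries (−1.36 ± 0.27 log2, edgeR adjusted p = 0.000308). Low Ctgf was not particular to lymphatic cells, since blood vessel cluster 12 held 23.2 ± 6.69 CPM on day 0 and 23.6 ± 5.23 on day 21. Wisp2 was at 7.56, 18.9 and 87.7 CPM in lymphatic against 0.786, 4.32 and 22.1 in blood vessel cells, and higher in 13 of 14 (2.03 ± 0.30, edgeR adjusted p = 7.995e-06). Amotl2 was lower in 13 of 14 libraries (−0.77 ± 0.16, edgeR adjusted p = 0.0005306). Cyr61 was at 446 ± 210.2 and 347 ± 68.3 CPM and did not pass the test (0.22 ± 0.14, edgeR adjusted p = 0.2547). Of 8143 genes 34.1% passed, against 3 of 4 tested members.

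The called genes among the other YAP/TEAD targets were all lower in stromal-like cells on days 3 and 7 than on day 0. Since the gene lists were chosen with earlier results of these data known, their counts and p-values here and below are no independent evidence. In these cells 10 of 17 tested list genes were lower and 0 higher on day 3 against day 0 by edgeR's test, with a list median of −0.80 on the log2 scale against 0.01 over all genes, where 66.1% of genes were called, 33.4% higher and 32.7% lower. On day 7, 9 of 18 were lower and 0 higher (median −0.48), against 53.6% of all genes, 27.6% higher and 26% lower. Axl, a receptor tyrosine kinase gene, fell from 504 ± 47.4 CPM on day 0 to 100.2 ± 13.6 on day 3 and 128 ± 20.2 on day 7 (edgeR adjusted p = 2.068e-08 and 2.318e-07). F3, the tissue factor gene, fell from 163 ± 60.2 to 30.1 ± 5.75 and 46.2 ± 2.54 CPM (edgeR adjusted p = 3.105e-06 and 9.244e-06). Igfbp3, which encodes a carrier of insulin-like growth factors, fell from 258 ± 66.0 to 35.5 ± 23.7 and 81.5 ± 8.39 CPM (edgeR adjusted p = 3.002e-05 and 7.477e-06). Against day 7, 7 of 18 list genes were higher and 0 lower on day 21 (median 0.24), where 35.5% of all genes were called, 18.3% higher and 17.2% lower. They included F3 (1.13 ± 0.12), Axl (1.03 ± 0.16) and the matrix gene Ccdc80 (0.97 ± 0.14).

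The vascular lineages held genes of both directions. In mural-like cells 1 of 9 tested list genes was higher and 5 were lower on day 3, against 57.7% of all genes called, 2 of 12 were higher and 4 lower on day 7 (46.8%), and 7 of 14 were higher and 1 lower on day 21 against day 7 (31.2%). In pericyte-like cells alone, 1 list gene was called on day 3 and 1 on day 7. Crim1, a membrane protein gene, was at 210.3 ± 41.8 CPM in mural-like cells on day 0 and 49.5 ± 14.9 on day 7 (edgeR adjusted p = 1.308e-07). Cell type and day cannot be told apart in the mural and endothelial sums of these days. In endothelial-like cells 2 of 14 were higher and 6 lower on day 3 (56.4% of all genes called), 3 of 14 higher and 8 lower on day 7 (59.4%), and 7 of 15 higher and 1 lower on day 21 against day 7 (31.1%). Myof, the myoferlin gene, was higher in both, rising in endothelial-like cells from 8.68 ± 3.23 to 62.2 ± 12.47 CPM between days 0 and 7 (2.86 ± 0.24, edgeR adjusted p = 3.481e-07) and in mural-like cells from 20.1 ± 15.1 to 70.6 ± 4.14 (edgeR adjusted p = 0.0004861). Nt5e, the CD73 gene, also rose in endothelial-like cells, from 3.91 ± 2.86 to 24.1 ± 6.14 CPM (edgeR adjusted p = 5.361e-05). In smooth muscle-like against pericyte-like cells 4 of 9 list genes were higher and 2 lower, with 47% of all genes called. In tenocyte-like against stromal-like cells 4 of 17 were higher and 4 lower (28% of all genes called). In lymphatic against blood vessel cells 2 of 12 were higher and 6 lower (34.1%). The tenocyte-like cells, which had more Ctgf and Cyr61, thus had F3 lower (−1.98 ± 0.20, edgeR adjusted p = 5.759e-07) and Nt5e higher (1.31 ± 0.17, edgeR adjusted p = 1.351e-05).

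**Figure D4:**
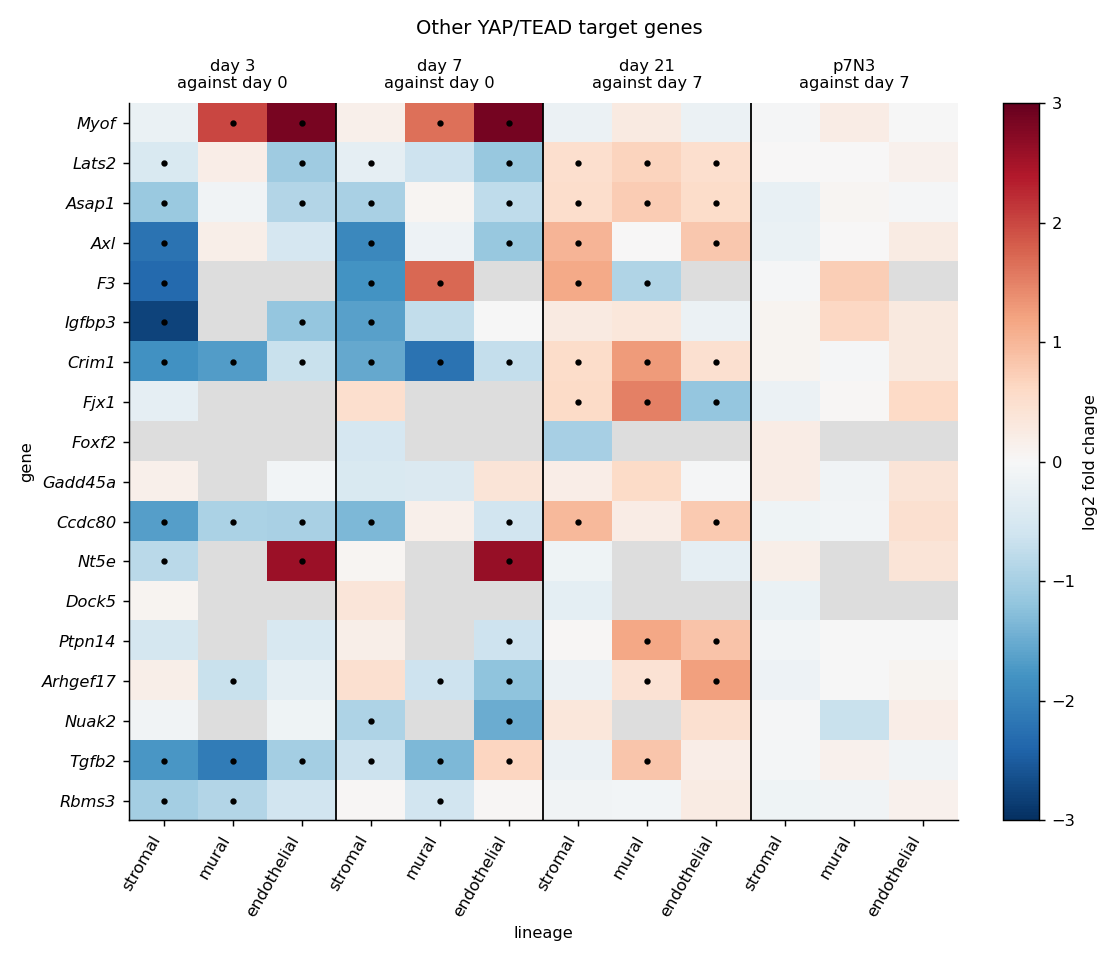
Differences on the log2 scale (colour, from −3 to 3) of the 18 other YAP/TEAD target genes (rows) in the comparisons of each lineage (columns), with dots on genes called by edgeR and grey where a gene was not tested. The stromal columns of days 3 and 7 hold 10 and 9 called genes, all lower, and the p7N3 columns hold none.

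Hippo genes were called in both directions. Of the Hippo list, 3 of 18 tested genes were higher and 9 lower on day 3 in stromal-like cells, where 66.1% of all genes were called, and 5 were higher and 7 lower of 18 on day 7, where 53.6% were. Tead2 rose from 5.17 ± 2.08 CPM on day 0 to 28.0 ± 4.50 on day 7 (2.55 ± 0.25, edgeR adjusted p = 4.329e-06), and Tead1 from 36.8 ± 5.51 to 58.0 ± 9.77 (adjusted p = 0.001641). Amotl1, a relative of Amotl2, fell from 135 ± 18.6 to 29.3 ± 1.17 CPM on day 3 (−2.06 ± 0.11, edgeR adjusted p = 1.93e-08) in the same cells in which Amotl2 was higher. Stromal Yap1 was higher on day 7 (0.41 ± 0.13, edgeR adjusted p = 0.01573) and Wwtr1 was at 77.3 ± 4.51 against 73.0 ± 5.60 CPM (adjusted p = 0.2661). Mural Yap1 was at 63.4 ± 3.55 CPM on day 0 and 39.0 ± 3.71 on day 7 (edgeR adjusted p = 0.004671), and at 66.3 ± 12.9 on day 21 (adjusted p = 0.001048 against day 7). Endothelial Wwtr1 was at 249.4 ± 16.8 CPM on day 0 and 181 ± 8.28 on day 7 (edgeR adjusted p = 0.0003954), and endothelial Yap1 at 39.2 ± 3.32 and 45.2 ± 8.501 (adjusted p = 0.2853). The cell types and clusters within the mural and endothelial sums differed between these days, and cannot be told apart from the day in these values. Tenocyte-like cells had more Wwtr1 than stromal-like cells, at 167 ± 62.2 against 84.7 ± 15.97 CPM (0.88 ± 0.14, edgeR adjusted p = 0.0001304).

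Of 11 CCN receptor genes tested in stromal-like cells, 3 were higher and 4 lower on day 7, in the same fit with 53.6% of all genes called. Itga6, the integrin alpha 6 gene, fell from 51.3 ± 33.8 to 3.503 ± 0.796 CPM (edgeR adjusted p = 2.544e-06) and rose to 15.7 ± 3.70 on day 21 (adjusted p = 0.0002023). Of 8 SRF/MRTF genes, which respond to the actin cytoskeleton, 5 were higher and 0 lower on day 7, with Acta2 going from 34.2 ± 25 to 1206 ± 581 CPM (edgeR adjusted p = 1.656e-06) and back to 201 ± 93.4 on day 21 (adjusted p = 0.001598). The same list went the other way in mural-like cells, with 0 of 8 higher and 6 lower on day 7, where 46.8% of all genes were called. Of this list, 6 of 7 tested genes were higher in smooth muscle-like than in pericyte-like cells, with 47% of all genes called in either direction. Its genes Acta2 and Cnn1 were among the markers that named smooth muscle-like cells, so that this count is no independent result. Mural-like cells were mostly smooth muscle-like on day 0 and pericyte-like on day 7, so that cell type and day cannot be told apart in the mural count. Of the 11 immediate early and dissociation genes, 0 were higher and 9, 11 and 10 lower on day 7 in stromal-like, mural-like and endothelial-like cells. The shares of all genes called were 53.6%, 46.8% and 59.4% in the same order. Stromal Egr1 was at 844 ± 76.9 CPM on day 0 and 339 ± 102 on day 7 (edgeR adjusted p = 8.631e-05), and stromal Fos at 1783 ± 292 and 1094 ± 315 (adjusted p = 0.007636).

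The stromal pattern of each member over the 19 libraries was set beside that of 13696 genes. The libraries fall into 5 groups, so that likeness here mostly follows group means. Wisp1 was most like Actn1, an actin cross-linker gene (Pearson r = 0.997, Spearman rho = 0.977), followed by Gpr176 and Kif26b. Nov was most like Fap, the fibroblast activation protein gene (r = 0.958, rho = 0.928), followed by Ghr and Map1lc3a. Amotl2 was most like Cyp1b1 (r = 0.941, rho = 0.912), Cyr61 most like Tradd (r = 0.902, rho = 0.816), and Wisp2 most like Romo1 (r = 0.871, rho = 0.807). Ctgf had the loosest match of the CCN genes, with Zdhhc8 (r = 0.8288, rho = 0.858), and Ankrd1, on few UMIs, was most like Tmem63b (r = 0.830, rho = 0.8293). No member was among the 3 most alike genes of another.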

How the data were processed

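Single-cell RNA sequencing of 19 libraries was analysed from the UMI counts that were deposited as a matrix for each library. Per the labels and methods, the authors made these counts with Cell Ranger from 10x version 2 libraries. The labels of replicates 1 to 3 listed the human build GRCh38 and those of replicate 4 mm10, while all 27998 gene identifiers were mouse. The members and gene lists were chosen with earlier results of these data known.

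As in the study, a cell needed 500 detected genes and no more than 25% of its UMIs from mitochondrial genes. Doublets were left in, and removed in an alternative. Scanpy 1.11.5 and Leiden clustering (resolution 0.8, 2000 variable genes, 30 components) left out 82 genes, the members and lists. A cluster was named from its markers or stayed unnamed. UMIs were summed per library and lineage, with at least 10 cells, and fitted with edgeR 4.0.16 (quasi-likelihood, TMM factors, filterByExpr, Benjamini-Hochberg adjustment, threshold 0.05) over the libraries of each comparison. Within lineages the library was a block. Standard errors are those of the edgeR fit. CPM values are UMIs per 1000000 UMIs of the sum, and error after a mean is the SD over libraries. Totals of 3019467 to 39870492 UMIs per library set the counting precision, and shares of cells cover counting error only. From each list, the genes named were up to 3 per direction with the largest change among called genes without overlap and at 10 CPM or more, with Yap1, Wwtr1, Tead1, Fos and Egr1 always given. The method was tested on simulated data. Alternatives were DESeq2 1.42.0, RLE factors, other filters on genes, cells and doublets, Leiden resolution 2, left-out libraries, replicates 1 to 3 only, a replicate block, and lineages with other clusters added or removed, the last chosen after seeing the data. Gene positions were from GENCODE vM21 and sequences from RefSeq (GRCm38.p6).

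The CCN receptor, SRF/MRTF, Hippo and immediate early lists held 11, 8, 20 and 11 genes. A list of TGF beta response genes is not reported here. The remaining CCN gene, Wisp3, passed the filter in no comparison.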

Additional observations from a re-analysis of the deposited data

Results flagged for a closer look

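Of 84 groups of 4 libraries, 8 held a library far from the other 3 in a member's level (by Dixon's test), where chance gives about 1 in 20. Nov in mural-like cells stood at 670.4 CPM in day 0 replicate 4, against 0 to 20.3 in the others, and at 28.8 CPM in p7N3 replicate 4, against 3.11 to 5.67. Wisp1 in mural-like cells was at 31.5 CPM in day 0 replicate 4 and at 0 in the others. Stromal Nov in p7N3 replicate 2 was low, at 30.9 CPM against 39.7 to 41.3. In day 21 replicate 1, Wisp2 was high in stromal-like cells (473.5 CPM against 269.9 to 300.9) and in endothelial-like cells (21.2 against 4.34 to 5.70), and endothelial Cyr61 was 451.7 CPM against 372 to 378. Endothelial Ankrd1 was 0.440 CPM in day 21 replicate 4, from 1 UMI, and 0 in the others.

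Amotl2 differed from day 0 in opposite directions between lineages, with every library of the later day on that side of every day 0 library. On day 3 the log2 difference was 1.15 in stromal-like and −1.85 in endothelial-like cells. On day 7 it was 0.71 in stromal-like cells, against −1.03 in mural-like and −1.95 in endothelial-like cells. The difference between lineages was not tested, and the clusters or cell types within the stromal, endothelial and mural sums also differed between these days.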

How the results depend on the processing

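No called result changed direction under the alternatives run, but some untested member differences did. In pericyte-like cells alone, mural Ctgf and Cyr61 on day 7 against day 0 were 1.498 and 0.17 in place of −0.81 and −0.75, and Ctgf on day 21 against day 7 was −0.69 in place of 0.02 (−0.59 with replicates 1 to 3 only). Endothelial Wisp2 with p7N3 was 0.36 in blood vessel cells alone in place of −0.20. The other changes of sign were in differences of at most 0.31 in size. Of 1123 alternatives to 64 member differences between groups, 1094 moved by less than 1 SD of the main groups. Those that moved further included the values in pericyte-like cells just given, and mural Wisp1 on day 7 against day 0 without day 0 replicate 4 (7.404 in place of 1.33, since the other day 0 libraries were at 0, so that its size depends on the prior count). Of 260 alternatives to the 15 member tests within lineages, 259 stayed on the same side of the threshold. A gene that failed the filter gave no value, so that Nov in smooth muscle-like cells had 10 alternatives and Wisp2 in lymphatic cells 8, against 16 to 22 for the others. Nov in tenocyte-like cells passed with DESeq2 (−1.55, adjusted p = 0.01285, DESeq2).

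Counts of called genes varied more. For p7N3 against day 7 in stromal-like cells, with 0 genes called, DESeq2 called 71, the fit without a filter on low counts 7, and that with the unnamed clusters added 3, and leaving out 1 library gave 0 to 2 (2 without day 7 replicate 4). In mural-like cells the 1 called gene became 17 without the filter, 2 with replicates 1 to 3 only, 0 with doublets removed, and 1 to 2 with 1 library left out. In endothelial-like cells the count of 0 became 12 without the filter, and 0 to 2 with 1 library left out. In mural-like cells, day 3 against day 0 (2221 genes) gave 3618 without the filter, 1133 with at least 10 UMIs in every library and 514 in pericyte-like cells only. Day 7 against day 0 (3590) gave 1266 and 885 under the last 2, and 2385 to 3768 with 1 library left out, lowest without day 7 replicate 2. The smooth muscle comparison (2567) gave 4148 without the filter and 284 with at least 10 UMIs in every library. That minimum gave 456 in the tenocyte comparison (2752), against 1768 without the library block, and 596 in the lymphatic comparison (2780). That minimum leaves fewer genes to test, and the cause of the other changes was not tested.

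In the list of other YAP/TEAD targets, pericyte-like cells alone held 1 called gene on day 3 and 1 on day 7 where mural-like cells held 6 and 6. In endothelial-like cells on day 21 against day 7 the 8 called genes became 5 without day 7 replicate 1 or without cluster 27, a blood vessel cluster with pericyte markers. With a replicate block, p7N3 called 0, 2 and 0 genes in stromal-like, mural-like and endothelial-like cells, and no other count moved by over 1.5 times. Replicate numbers showed little sign of pairing: 4 of 45 same-numbered pairs correlated above 0.1 in their deviations from the group means (−0.163 to 0.23). With so few libraries per group, this cannot exclude that same-numbered libraries were processed together. The addition of named tenocyte-like or chondrocyte-like clusters to the stromal-like cells was not run, since none was named at resolution 0.8, and the unnamed clusters were added instead. RLE factors in place of TMM moved the median of all genes by at most 0.0254 on the log2 scale. Shallow day 0 libraries and few mural-like cells limit what low members such as Wisp1, Wisp2 and Nov could show there.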
